A study of Mus musculus with 14 samples.

Results

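The Hist1 cluster is the largest group of replication-coupled histone genes in the mouse and lies on chromosome 13. Peaks were taken as members when they overlapped chr13:21780000-23880000 of build mm9 by at least 1 bp. Of the 557412 peaks in the 12 lists, 1368 did so. Of these, 588 lay in the proximal subcluster (the window up to 22.2 Mb), 675 in the distal subcluster (from 23.5 Mb) and 105 in the stretch between. The members were chosen by position and not by any measured value.

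The peak lists come from ChIP-seq on neurospheres, free-floating cultures labelled as neural stem cells, which were raised from mouse hindbrain of stage e15.5. In 3 cultures the genotype was Nestin-cre; H3f3aLSL-K27M-Tag/+ (K27M-Tag) and in 3 it was Nestin-cre; H3f3aLSL-WT-Tag/+ (WT-Tag, the control), with 1 FLAG list and 1 H3K4me3 list per culture. H3f3a encodes the histone variant H3.3, and both alleles carry the tag that the FLAG antibody detects, so the groups differ in the K27M substitution and share the tag, the Cre driver and 1 untagged H3f3a copy. Nestin-cre acts in neural progenitors, and the share of cells that had recombined was not measured in these lists. No culture without the tagged histone was used here, so the FLAG signal of untagged cells over this cluster is not known. WT-Tag replicate 3 was labelled male and the other 5 cultures female. What sets the cultures of a genotype apart beyond their number and sex is not given in the sources used here, so the p-values measure only the spread between these cultures.

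Replication-coupled histone genes supply the bulk H1, H2A, H2B, H3 and H4 proteins that package new DNA in S phase. They are short, lack introns and end in a stem-loop instead of a poly(A) tail, and dividing cells transcribe them at a high rate within a nuclear structure known as the histone locus body. H3f3a lies outside the cluster, and its product H3.3 can enter chromatin independently of replication, among other places at active promoters, where H3K4me3 is the usual mark. K27M replaces the lysine at which Polycomb repressive complex 2 places H3K27me3.

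In the RefSeq gene table of build GRCm38.p6, 55 genes with a Hist1h name lie in the cluster, 6 of the H1, 14 of the H2A, 15 of the H2B, 9 of the H3 and 11 of the H4 class, and 1 of them is a pseudogene. The proximal block holds 24 of them and the distal block 31, among them 5 of the 6 H1 and 7 of the 9 H3 genes. Between the first and the last of these genes the table also has 77 tRNA genes, and 75 vomeronasal receptor genes and pseudogenes separate the blocks. Because the peaks are placed in mm9 and no mm9 annotation was used here, the labelled cell type was not checked against its marker genes, no peak was assigned to a single gene, and regions below are given by mm9 position. Copies within a class are near-identical in their coding parts, and how reads with several matches were treated is not given in the sources used here, so that levels at single copies are uncertain.

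A promoter sequence was matched for 51 of the 55 genes (RefSeq, GRCm38.p6). The first gene of each class in map order is shown, as the 250 bases before its start, to show the promoters over which H3K4me3 is read in such a cluster. Capitals mark matches on either strand to 4 motifs. One is TATAAA, the core of the box at which TATA-binding protein sits. Another is CCAAT, which the factor NF-Y is known to bind. The octamer of many H2B promoters is ATTTGCAT, and the element named for H1 genes is AAACACA. The positions are those of GRCm38.p6 and cannot be set beside the mm9 positions of the peaks.
H1f5 (H1 class, chr13:21780626-21780875, - strand): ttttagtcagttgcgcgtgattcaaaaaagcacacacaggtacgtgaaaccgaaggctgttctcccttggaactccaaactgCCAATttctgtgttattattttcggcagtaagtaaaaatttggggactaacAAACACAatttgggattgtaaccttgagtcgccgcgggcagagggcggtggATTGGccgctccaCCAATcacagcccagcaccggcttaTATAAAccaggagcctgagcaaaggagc
H2ac13 (H2A class, chr13:21716162-21716411, + strand): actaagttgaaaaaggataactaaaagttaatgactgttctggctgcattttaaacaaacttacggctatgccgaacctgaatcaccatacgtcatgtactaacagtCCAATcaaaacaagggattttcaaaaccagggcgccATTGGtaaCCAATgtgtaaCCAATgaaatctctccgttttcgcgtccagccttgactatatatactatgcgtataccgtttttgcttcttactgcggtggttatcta
H2bc13 (H2B class, chr13:21716184-21716433, - strand): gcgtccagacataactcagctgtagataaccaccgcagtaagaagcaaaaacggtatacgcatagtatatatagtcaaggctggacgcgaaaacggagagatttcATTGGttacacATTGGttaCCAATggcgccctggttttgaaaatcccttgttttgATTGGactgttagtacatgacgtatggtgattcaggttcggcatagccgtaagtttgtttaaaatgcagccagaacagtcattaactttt
H3c10 (H3 class, chr13:21717378-21717627, + strand): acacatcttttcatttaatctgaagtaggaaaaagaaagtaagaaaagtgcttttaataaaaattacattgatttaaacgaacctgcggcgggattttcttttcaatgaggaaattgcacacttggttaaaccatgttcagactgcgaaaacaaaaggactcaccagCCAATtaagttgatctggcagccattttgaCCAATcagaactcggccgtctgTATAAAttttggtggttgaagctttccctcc
H4c11 (H4 class, chr13:21734784-21735033, + strand): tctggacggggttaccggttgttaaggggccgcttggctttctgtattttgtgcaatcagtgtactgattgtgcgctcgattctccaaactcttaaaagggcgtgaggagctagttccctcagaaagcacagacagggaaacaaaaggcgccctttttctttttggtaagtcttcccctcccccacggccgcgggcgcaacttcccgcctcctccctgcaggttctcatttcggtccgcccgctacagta
The H2ac13 and H2bc13 sequences overlap on opposite strands, since this pair is transcribed outward from a shared stretch. CCAAT stood in 43 of the 51 cluster promoters (84.3%), against 34.5% of 27025 promoters of the same length. It was in each of the 6 H1, 13 H2A, 14 H2B and 7 H3 promoters and in 3 of 11 H4 promoters. TATAAA stood in 51.0% of the cluster promoters and 12.97% of all. The octamer ATTTGCAT was in 5 of 14 H2B and 5 of 13 H2A promoters and in none of the other classes, against 1.61% of all promoters. AAACACA was in 5 of 6 H1, 2 of 13 H2A and 2 of 14 H2B promoters and in none of the H3 and H4 classes, against 6.22% of all. The median GC content was 44.8% in the cluster and 52.0% in all promoters. These matches describe the sequences and are not evidence of binding.

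No read totals are in the lists. The background coverage recovered from each list's fold enrichment and p was 3.09 to 3.60 fragments per base for FLAG and 2.77 to 3.50 for H3K4me3. Whole FLAG lists held 57589 to 88285 peaks in K27M-Tag against 32763 to 47293 in WT-Tag, and whole H3K4me3 lists 35366 to 38720 and 31932 to 32504. Peaks whose recovered local background exceeded 1.5 times the background coverage were 7.43% ± 2.67 (SD, n = 3) of the FLAG peaks of the window in K27M-Tag against 22.1% ± 4.34 (SD, n = 3) in WT-Tag. Among the H3K4me3 peaks of the window they were 10.2% ± 2.96 and 25.2% ± 1.07 (SD, n = 3 each). The rest of the lists showed this difference too. There the shares were 7.38% ± 1.94 and 16.3% ± 3.66 for FLAG and 9.97% ± 1.12 and 33.2% ± 0.246 for H3K4me3 (SD, n = 3 each). The 2 composite input samples of the series, titled K27M-Tag and WT-Tag, were not analysed here. If they served as controls in peak calling, control and genotype cannot be told apart.

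FLAG peaks over the cluster were more numerous in every K27M-Tag culture than in any WT-Tag culture. The K27M-Tag lists held 200, 177 and 228 FLAG peaks in the window and the WT-Tag lists 34, 64 and 51. The lowest K27M-Tag list thus lay well above the highest WT-Tag list. Means were 202 ± 25.5 and 49.7 ± 15.0 (SD, n = 3 each), a ratio of 4.06, against 1.76 for the rest of the lists. The ratio was larger for covered length. FLAG peaks covered 127640, 100833 and 138498 bp of the window in K27M-Tag against 10997, 21538 and 18317 bp in WT-Tag, a ratio of 7.22, against 2.54 for the rest of the lists. Median FLAG peak width in the window was 455 bp ± 3.46 against 314 bp ± 35.3 (SD, n = 3 each). In the rest of the lists it was 387 bp ± 4.04 against 293 bp ± 23.9 (SD, n = 3 each).

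Both subclusters showed this difference. In the proximal subcluster the K27M-Tag lists held 83, 79 and 99 FLAG peaks and the WT-Tag lists 10, 28 and 15. In the distal subcluster they held 108, 92 and 114 peaks against 24, 35 and 35. The ratio of mean covered length was 7.88 in the proximal and 6.32 in the distal subcluster, and whether these ratios differ was not tested. Between the subclusters FLAG peaks were few, with 9, 6 and 15 in K27M-Tag against 0, 1 and 1 in WT-Tag.

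The cluster also took a larger part of the K27M-Tag FLAG lists. It held 0.288%, 0.318% and 0.278% of all FLAG-covered bases in K27M-Tag against 0.0986%, 0.111% and 0.0975% in WT-Tag, a ratio of 2.88. The groups did not overlap. Each of these differences gave p = 0.1 in the two-sided exact permutation test, the smallest p that 3 cultures against 3 allow, so that none could pass 0.05. Adjusted over the 23 comparisons of this kind, the exact p was 0.128. With peaks of high local background left out, 187 FLAG peaks remained on average in K27M-Tag against 39.0 in WT-Tag. With equal list sizes (the 32763 top-scoring FLAG peaks of each list) the means were 114 and 36.0.

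**Figure D1:**
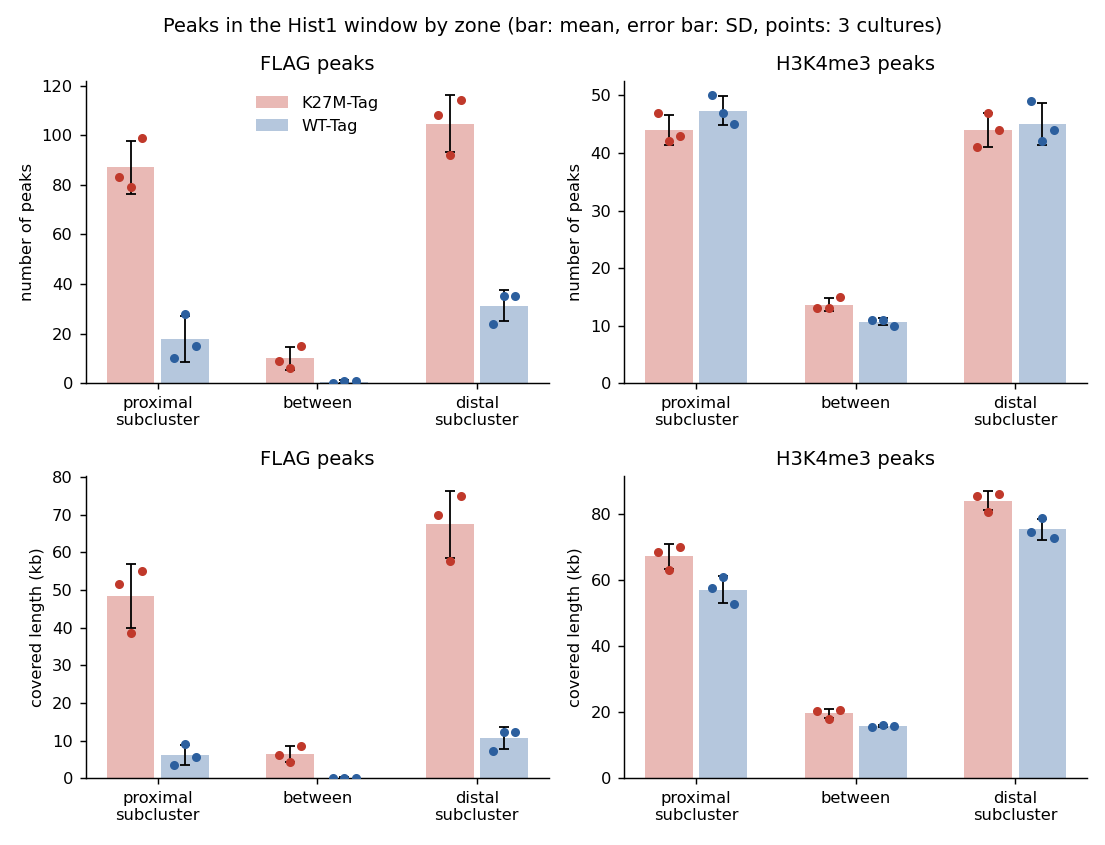
Number of peaks (top) and covered length in kb (bottom) for FLAG (left) and H3K4me3 (right) in the 3 zones of the window. Bars are means, error bars SD and points the 3 cultures of a genotype; FLAG points of the genotypes do not overlap in any zone, while the H3K4me3 peak numbers overlap in both subclusters.

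FLAG and H3K4me3 coverage was highest at the same place in both genotypes. Among 20 kb bins, the one covering chr13:23660000-23679999, in the distal subcluster, had the highest coverage in all 4 groups. FLAG peaks covered 54.9% ± 2.83 of it in K27M-Tag against 13.3% ± 2.55 in WT-Tag (SD, n = 3 each), and H3K4me3 peaks 61.3% ± 3.16 and 58.3% ± 2.35 (SD, n = 3 each). In the proximal subcluster FLAG was highest at chr13:22120000-22139999 in both genotypes, with 50.2% ± 6.09 and 10.9% ± 2.87 (SD, n = 3 each). H3K4me3 peaks covered 42.8% ± 2.01 and 37.5% ± 1.83 of that bin (SD, n = 3 each). A stretch of 987 kb, chr13:22374432-23361362, held no peak in any of the 12 lists. The order of genes in GRCm38.p6 puts the vomeronasal receptor genes, which are used in pheromone-sensing neurons, between the blocks.

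**Figure D2:**
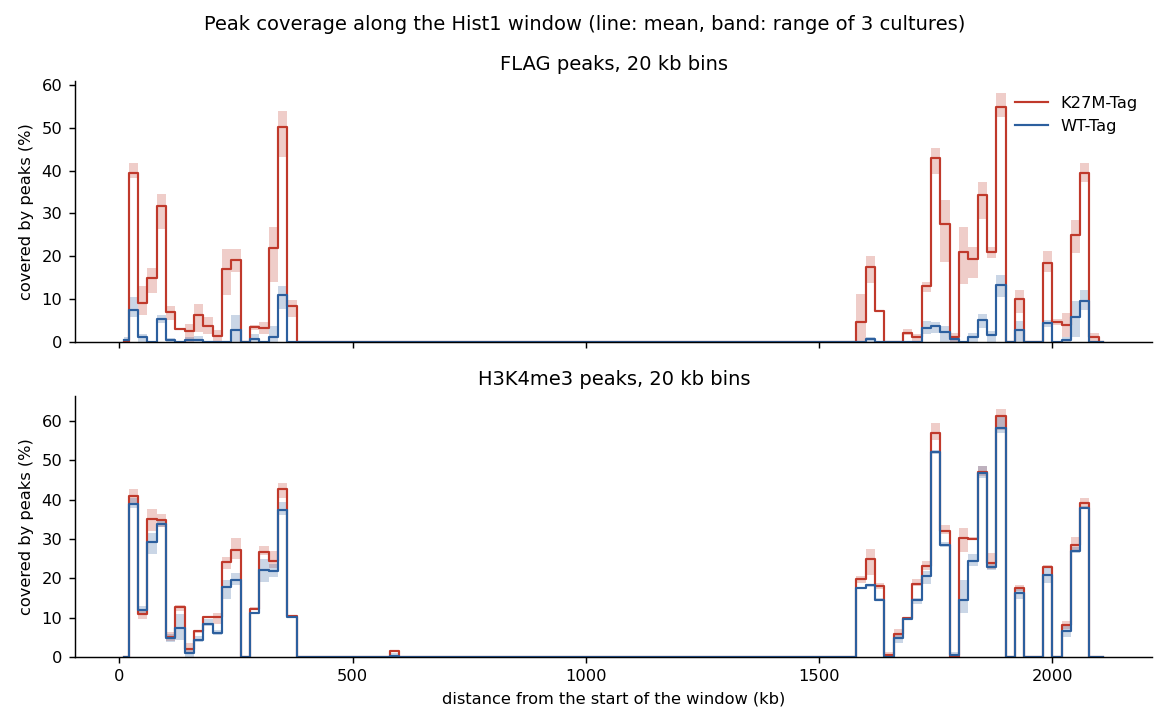
Share of each 20 kb bin covered by FLAG (top) and H3K4me3 (bottom) peaks, against the distance in kb from the start of the window. Lines are means and bands the range of the 3 cultures; the peaks stand in blocks at both ends with a nearly empty middle, and the FLAG lines of the genotypes lie far apart where the H3K4me3 lines lie close.

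H3K4me3 peaks over the cluster were as many in WT-Tag as in K27M-Tag within the spread between cultures, and they covered more bases in K27M-Tag. The K27M-Tag lists held 101, 102 and 102 H3K4me3 peaks in the window and the WT-Tag lists 110, 100 and 99 (two-sided exact permutation p = 1). Other choices moved this count, to 91.3 and 77.0 on average without peaks of high local background and to 94.3 and 103 with equal list sizes, in both cases without overlap. Between the subclusters the H3K4me3 peaks numbered 13, 13 and 15 in K27M-Tag against 11, 11 and 10 in WT-Tag, without overlap (exact permutation p = 0.1). Over the whole window H3K4me3 peaks covered 174471, 161836 and 177017 bp in K27M-Tag against 147948, 155777 and 141447 bp in WT-Tag. The groups did not overlap, and the ratio of 1.15 was close to the 1.17 of the rest of the lists. As a share of the list, the window held 0.390%, 0.385% and 0.393% of H3K4me3-covered bases in K27M-Tag against 0.410%, 0.398% and 0.377% in WT-Tag, which overlap (exact permutation p = 0.6). The FLAG share of the cluster was higher in all K27M-Tag lists while the H3K4me3 share overlapped between the genotypes.

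H3K4me3 peaks of the cluster were wide. Their median width was 1550, 1389 and 1522 bp in K27M-Tag against 1128, 1241 and 1235 bp in WT-Tag, against means of 796 and 825 bp for the rest of the lists. Over the 6 cultures the window exceeded the rest by 534 bp ± 183 (SD, n = 6), in 6 of 6 cultures (exact sign-flip permutation p = 0.03125, adjusted over 5 tests 0.0391). Without the lower-scoring 50% of peaks, the excess was 115 bp and no longer passed (exact sign-flip permutation p = 0.125). The median recovered height of H3K4me3 summits, in multiples of the background coverage, was 40.1 ± 1.36 in K27M-Tag against 31.3 ± 7.35 in WT-Tag in the window (SD, n = 3 each), and 15.2 ± 2.14 and 18.5 ± 1.90 in the rest (SD, n = 3 each). WT-Tag replicate 1, at 22.8, lay below the other WT-Tag cultures at 36.4 and 34.6.

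FLAG peaks of the cluster lay on H3K4me3 peaks of the same culture more often than FLAG peaks elsewhere. On the cluster, 73.5%, 73.4% and 73.7% of FLAG peaks in K27M-Tag against 91.2%, 68.8% and 78.4% in WT-Tag shared at least 1 bp with an H3K4me3 peak. Elsewhere the shares were 35.05% ± 1.11 and 18.6% ± 1.05 (SD, n = 3 each). All 6 cultures were higher in the window, by 49.7 percentage points ± 14.0 (SD, n = 6, exact sign-flip permutation p = 0.03125, adjusted 0.0391). On average H3K4me3 peaks covered 171108 bp of the 2.1 Mb window in K27M-Tag and 148391 bp in WT-Tag. The shares were not adjusted for the density of the mark, and its part in the excess was not tested. The genotypes overlapped within the window (exact permutation p = 0.5), and the WT-Tag shares rest on 34 to 64 peaks. Without peaks of high local background the mean shares in the window were 62.6% and 53.2%, which turns the direction between the genotypes. The excess over the rest was smaller in K27M-Tag, at 38.5 points ± 1.21, than in WT-Tag, at 60.8 points ± 10.9 (SD, n = 3 each), without overlap (exact permutation p = 0.1, adjusted over 5 tests 0.1). FLAG peaks off the mark were near it, at a median distance of 500.5 bp ± 30.0 in K27M-Tag against 693 bp ± 283 in WT-Tag (SD, n = 3 each), against 7872 and 9248 bp in the rest of the lists. The 420 kb of the proximal subcluster held 44 H3K4me3 peaks on average in K27M-Tag and 47.3 in WT-Tag. The 380 kb of the distal subcluster held 44 and 45. Any position there lies close to the mark, and whether the distances are shorter than this density gives was not tested.

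Seen from the H3K4me3 peaks, the genotypes differed. In K27M-Tag 72.3%, 64.7% and 79.4% of the H3K4me3 peaks of the window had a FLAG peak, and in WT-Tag 18.2%, 29.0% and 25.3%. The proximal subcluster gave 65.3% ± 7.98 against 16.99% ± 5.84 and the distal 87.5% ± 9.44 against 35.9% ± 6.41 (SD, n = 3 each). Counted in bases, 52.2%, 46.3% and 57.5% of the H3K4me3-covered length of the window lay under FLAG peaks in K27M-Tag against 6.80%, 10.5% and 10.7% in WT-Tag. The groups did not overlap (exact permutation p = 0.1, adjusted 0.128).

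For the cover of H3K4me3 by FLAG, the excess of the cluster over the rest was larger in every K27M-Tag culture than in any WT-Tag culture. In K27M-Tag the share of H3K4me3 bases under FLAG was 23.2 percentage points ± 0.879 higher in the window than in the rest, and in WT-Tag 2.74 points ± 0.915 (SD, n = 3 each). These differences of 3 cultures against 3 did not overlap, with an exact permutation p of 0.1 (adjusted over 5 tests 0.1), the smallest possible. Over all 6 cultures the share was 12.97 points ± 11.2 higher in the window (SD, n = 6, exact sign-flip permutation p = 0.03125, adjusted 0.0391). The share of H3K4me3 peaks with FLAG was 10.3 points ± 8.94 higher (SD, n = 6, the same exact p and adjusted p). By genotype this excess in peaks was 18.3 points ± 1.41 in K27M-Tag and 2.27 points ± 2.11 in WT-Tag (SD, n = 3 each). Without peaks of high local background the excess in peaks over all 6 cultures was 8.28 points, with an exact permutation p of 0.09375.

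**Figure D3:**
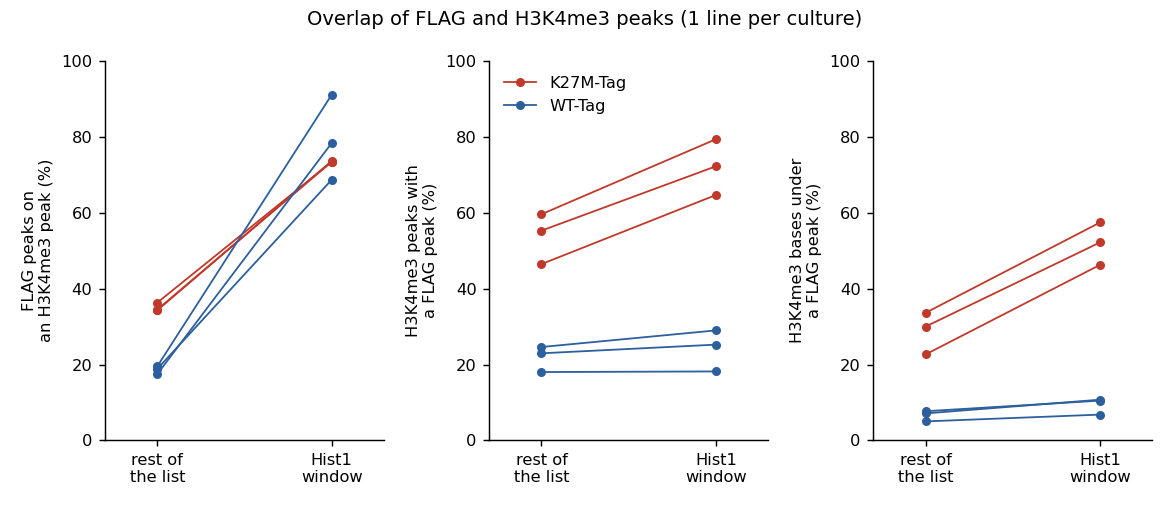
Shares in percent of FLAG peaks on H3K4me3, of H3K4me3 peaks with FLAG, and of H3K4me3 bases under FLAG, in the rest of the list and in the window, with 1 line per culture. All lines rise toward the window; in the middle and right panels the K27M-Tag lines stand above the WT-Tag lines in both places and rise by more.

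The H3K4me3 peaks of the cluster differ in score from those elsewhere, so the cover was also given in 4 bands of equal size by score within the list (band 1 low, band 4 high), a split chosen after the values were seen and given without a test. Band 3 held 51.2% ± 6.10 of the H3K4me3 peaks of the window in K27M-Tag against 45.4% ± 2.90 in WT-Tag (SD, n = 3 each). There FLAG covered 54.3% ± 3.98 of the H3K4me3 bases of the window and 25.04% ± 5.11 of those in the rest in K27M-Tag, against 7.99% ± 2.83 and 4.45% ± 1.18 in WT-Tag (SD, n = 3 each). In band 4 the values were 50.3% ± 11.7 and 24.4% ± 5.29 in K27M-Tag against 13.04% ± 1.95 and 3.43% ± 0.803 in WT-Tag (SD, n = 3 each). Bands 1 and 2 went the other way. In band 1, with 13 to 27 peaks of the window per list, FLAG covered 36.5% ± 13.3 in the window and 51.5% ± 6.80 in the rest in K27M-Tag, against 4.60% ± 2.74 and 24.2% ± 4.44 in WT-Tag (SD, n = 3 each). In band 2, with 15 to 18 peaks of the window per list, the values were 33.2% ± 2.28 and 43.9% ± 7.40 in K27M-Tag against 1.98% ± 1.82 and 14.7% ± 2.94 in WT-Tag (SD, n = 3 each).

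Merging the 6 lists of an antibody gave 227 FLAG regions and 104 H3K4me3 regions in the window. FLAG peaks were present in all 3 K27M-Tag lists but none of WT-Tag at 58 FLAG regions (25.6%), against 9.89% of all 117816 FLAG regions. The reverse pattern was found at 0 of 227, against 0.585% of all FLAG regions. Of the 58 regions, 32 lay in the proximal subcluster, 24 in the distal subcluster and 2 between, and 49 (84.5%) overlapped an H3K4me3 peak of some list, against 60.3% of all such FLAG regions. The share of bases common to a pair of FLAG lists (Jaccard index) averaged 0.587 within K27M-Tag, 0.360 within WT-Tag and 0.120 between the genotypes. The index cannot exceed the smaller covered length divided by the larger. FLAG covered 16951 bp of the window on average in WT-Tag and 122324 bp in K27M-Tag. A low index between the genotypes therefore does not show that FLAG lay at different places.

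The 3 K27M-specific FLAG regions with the highest scores in their weakest list each overlapped an H3K4me3 peak of some list. At chr13:23525634-23526746 (distal) FLAG peaks covered 998, 1093 and 962 bp in the K27M-Tag lists and 0 bp in each WT-Tag list. At chr13:21826518-21827983 (proximal) they covered 1194, 1151 and 1095 bp, and at chr13:23592928-23594734 (distal) 1798, 1238 and 1663 bp, again with no WT-Tag peak. The last of these regions did not overlap an H3K4me3 region found in all lists. Summits of the first stood at 9.49, 8.38 and 10.3 times the background coverage in the K27M-Tag lists, and those of the other 2 between 7.78 and 10.4 times. A region without a WT-Tag peak is one where no peak passed the limit of that list, and signal below it is not in the lists.

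H3K4me3 regions were mostly shared. Of the 104, 77 were in all 6 lists (74.0%, against 52.9% of all H3K4me3 regions), 3 were specific to K27M-Tag (2.88%, against 4.36% of all 42711 regions) and 0 to WT-Tag. The 3 were at chr13:21998984-21999872, chr13:22027367-22027760 and chr13:23392409-23393572, and their summits, between 4.69 and 9.61 times the background coverage, were low for the window. The first 2 had no FLAG peak in any list, and the last had one in 2 K27M-Tag lists. Without peaks of high local background, which were more frequent in the WT-Tag lists, 12 regions were specific to K27M-Tag. The share over all regions is not given for that setting. The Jaccard index of H3K4me3 lists averaged 0.887 within K27M-Tag, 0.864 within WT-Tag and 0.828 between the genotypes.

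At the 77 shared H3K4me3 regions, mean FLAG-covered length was higher in K27M-Tag at 69 and lower at 0, and 8 had no FLAG peak in any list. At 56 of them each K27M-Tag list had more FLAG-covered bases than each WT-Tag list, against a background of 40.7% of the 22592 H3K4me3 regions in all 6 lists. FLAG was in all K27M-Tag lists but none of WT-Tag at 28 of the 77 (36.4%), against 16.5% of the 22592. It was in all 6 lists at 16 of the 77 (20.8%, against 14.1%) and in no list at 8 (10.4%, against 31.7%). The K27M-only pattern was found at 16 of 34 regions in the proximal and 9 of 34 in the distal subcluster, and the pattern with all 6 lists at 5 and 11. Taking equal list sizes left 18 regions with the K27M-only pattern, and leaving out peaks of high local background left 14. The share over all regions is not given for these settings, so whether the excess remains there was not tested.

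Regions with FLAG in all 6 lists had, by median, the longest and highest H3K4me3 among the 3 patterns compared. Their median length was 3283 bp and their median H3K4me3 summit height 53.9 times the background coverage. The 28 regions with FLAG in K27M-Tag alone had 1742.5 bp and 37.9, and the 8 without FLAG 1381 bp and 39.9. The lengths overlapped, from 1132 to 7618 bp, from 729 to 3788 bp and from 720 to 2100 bp. FLAG in all 6 lists thus went with the longest regions by median among these 3 patterns. The 25 shared regions with other patterns were not part of this comparison, and the part of length in being called was not tested.

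**Figure D4:**
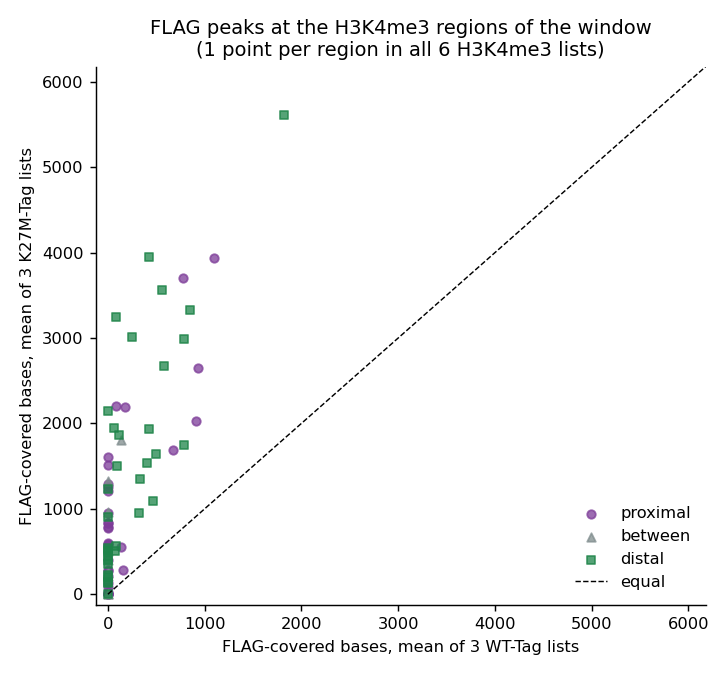
FLAG-covered bases at each of the 77 H3K4me3 regions shared by all 6 lists, as the mean of 3 WT-Tag lists (horizontal) and of 3 K27M-Tag lists (vertical), by zone. No point lies below the line of equality, and 47 regions without a FLAG peak in WT-Tag stand on the vertical axis.

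The highest-scoring shared H3K4me3 regions show both patterns. Of the 5 in the proximal subcluster, each had FLAG in all 3 K27M-Tag lists and in no WT-Tag list. The first of them, chr13:22036177-22038257, had H3K4me3 peaks of 1941, 1794 and 2081 bp in K27M-Tag against 1591, 1839 and 1803 bp in WT-Tag, which overlap, while FLAG peaks covered 1003, 612 and 753 bp of it in K27M-Tag against 0 bp in WT-Tag. At chr13:21840048-21843050 FLAG covered 1365, 894 and 1506 bp in K27M-Tag against 0 bp in WT-Tag.

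Of the 5 in the distal subcluster, 4 had FLAG in all 6 lists and the other one in the 3 K27M-Tag lists and 1 WT-Tag list. The first, chr13:23514480-23517613, had the highest H3K4me3 summits, at 104, 116 and 90.9 times the background coverage in K27M-Tag against 82.4, 104 and 94.4 in WT-Tag. FLAG covered 1253, 955 and 1060 bp of it in K27M-Tag against 381, 501 and 517 bp in WT-Tag, without overlap. The widest difference among these 5 was at chr13:23851823-23856577, with 3587, 3760 and 3341 bp against 186, 933 and 547 bp, where H3K4me3 peaks covered 4461, 4243 and 4582 bp in K27M-Tag against 4364, 4374 and 4357 bp in WT-Tag, which overlap. Among all 10, 1 passed the limma test of H3K4me3 breadth, chr13:23536390-23539216, with 2654, 2537 and 2502 bp against 2254, 2210 and 2146 bp (log2 difference 0.22 ± 0.04 SE, limma adjusted p = 0.0334, and 0.372 after centring the lists on their medians).

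FLAG regions present in all 6 lists could be tested for breadth, as log2 covered bases, with limma over all 11980 such regions. Of the 24 in the window, 17 (70.8%) were wider in K27M-Tag and none narrower at an adjusted p under 0.05, against 43.1% wider of all regions tested. The median log2 difference was 1.64 in the window and 0.81 over all, and the estimates in the window ran from 0.23 to 3.08. After centring the lists on their medians, 9 of the 24 (37.5%) were wider and none narrower, against 8.13% wider and 11.5% narrower of all regions. The excess over the background was not seen with equal list sizes, where 9 of 18 (50.0%) were wider against 49.7% of all regions, and it was 9 of 17 (52.9%) against 45.6% among the top 50% of peaks. Without peaks of high local background 7 of 12 (58.3%) were wider, against 39.4% of all regions. A region in all 6 lists had to be called in WT-Tag too, so the 24 leave out the places where FLAG was called in K27M-Tag alone.

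The largest difference was at chr13:23623860-23627852 in the distal subcluster. FLAG peaks covered 3610, 3020 and 3536 bp of it in K27M-Tag against 235, 506 and 535 bp in WT-Tag (log2 difference 3.08 ± 0.34 SE, limma adjusted p = 0.00112). The region chr13:23673422-23677934, in the bin of highest coverage, held the most FLAG bases in K27M-Tag, with 4142, 3845 and 4151 bp against 294, 1136 and 850 bp in WT-Tag (log2 difference 2.62 ± 0.44 SE, limma adjusted p = 0.00290). Next in size, chr13:23773774-23775841, had 1583, 1117 and 1767 bp against 310, 311 and 202 bp (log2 difference 2.44 ± 0.34 SE, limma adjusted p = 0.00175). In all 3 the K27M-Tag values lay far above the WT-Tag values, and all 3 passed in the centred fit. In WT-Tag the most FLAG bases were at chr13:21878551-21880924 in the proximal subcluster, with 891, 848 and 999 bp against 2005, 1207 and 2148 bp in K27M-Tag (log2 difference 0.93 ± 0.28 SE, limma adjusted p = 0.0257), and this one did not pass when centred (limma adjusted p = 0.960).

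**Figure D5:**
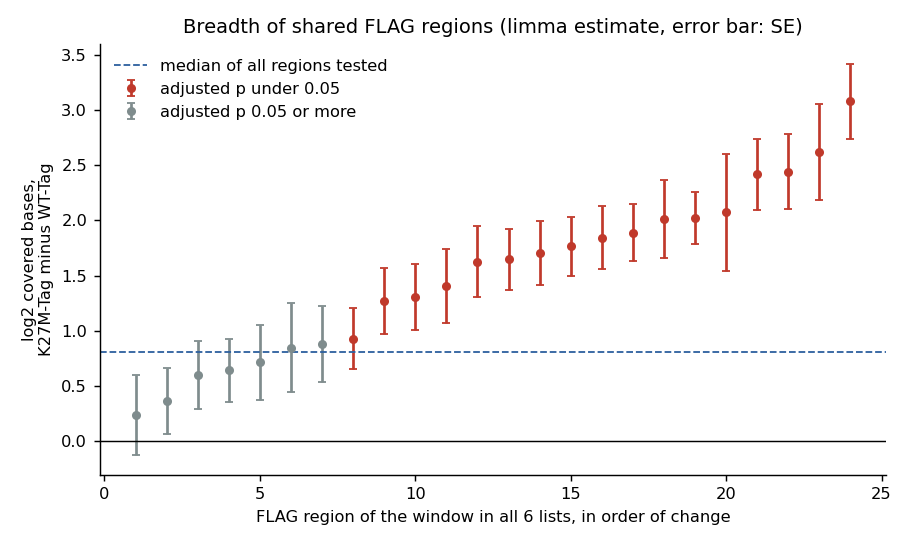
The log2 difference in FLAG-covered bases between K27M-Tag and WT-Tag for the 24 FLAG regions of the window in all 6 lists, in order of size, with SE. All 24 estimates lie above 0, 17 of them pass at an adjusted p under 0.05, and the dashed line is the median of 0.81 over all regions tested.

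Summit heights of the shared FLAG regions were tested in the same way. Of the 24 regions, 11 (45.8%) were higher in K27M-Tag and none lower, against 37.5% higher of all regions tested (limma, adjusted p under 0.05). The median log2 difference was 0.39, against 0.31 over all regions. After such centring, 2 regions were higher (8.33%, against 8.998% of all regions) and 1 lower (4.17%, against 12.3%). Without K27M-Tag replicate 3 the count of higher regions was 5 (20.8%, against 24.0%). With equal list sizes 7 of 18 (38.9%) were higher, against 50.9% of all regions. Without peaks of high local background 4 of 12 (33.3%) were higher and 1 (8.33%) lower, against 35.3% higher and 1.65% lower of all regions.

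H3K4me3 breadth and height at the 77 shared regions had uncentred medians close to those of all regions. In breadth, 8 of the 77 (10.4%) were wider in K27M-Tag and none narrower, against 7.56% wider of 22592 regions, and the median log2 difference was 0.14 in the window and 0.14 over all. Centred, 1 of the 77 was wider (1.299%, against 1.97% of all regions). Without K27M-Tag replicate 1 or 3, 0 of them passed the limma test, against 0.326% and 0.698% wider of all regions. In these fits 21 and 19 had an unadjusted limma p under 0.05. Without K27M-Tag replicate 2, WT-Tag replicate 3 and WT-Tag replicate 1 the counts were 2, 3 and 5 (2.56%, 3.75% and 6.49%, against 2.62%, 3.43% and 5.01%). Without WT-Tag replicate 2 the count was 11 (14.3% against 10.6%). In summit height, 16 (20.8%) were higher and 0 lower, against 10.7% higher, with a median log2 difference of 0.30 against 0.33 over all. After centring the lists on their medians, 5 were higher (6.49%) and 19 lower (24.7%), against 2.17% higher and 5.06% lower of all regions. The uncentred count was 2, 6 and 8 without K27M-Tag replicate 1, 2 or 3 (2.60%, 7.69% and 10.4%, against 2.22%, 2.52% and 7.54% of all regions). Leaving out WT-Tag replicate 1, 2 or 3 gave 14, 28 and 5 (18.2%, 36.4% and 6.25%, against 9.18%, 24.3% and 4.10%).

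The H3K4me3 regions that widened most among those that passed were low. At chr13:22027832-22029434 (proximal) peaks covered 865, 946 and 1062 bp in K27M-Tag against 272, 528 and 304 bp in WT-Tag (log2 difference 1.44 ± 0.26 SE, limma adjusted p = 0.0262). At chr13:23589694-23591293 (distal) they covered 1515, 1164 and 1335 bp against 615, 882 and 467 bp, and at chr13:22002588-22003376 (proximal) 785, 770 and 708 bp against 479, 486 and 410 bp. The groups did not overlap at any of the 3. In the centred fit the first passed and the other 2 did not (limma adjusted p = 0.0664 and 0.0654). Their summits in K27M-Tag, between 7.94 and 17.7 times the background coverage, were under the window's median of 40.1. FLAG peaks stood in all K27M-Tag lists but none of WT-Tag at the second, and in 3 and 1 of the 6 lists at the first and the last.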

How the data were processed

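Peaks of FLAG and H3K4me3 ChIP-seq were taken from 12 lists of 6 cultures. Per the submitters' processing notes, BWA 0.7.17-r1188, MACS2 2.2.7.1 and bedtools 2.29.2 were used, with builds mm9 and dm6. Per the labels, Drosophila chromatin was added for H3K4me3 and ChIPs were pooled as needed, and no spike-in factor was applied here. Each deposited list gives a fold ratio over local background, a −log10 p and −log10 q, and a score of 10 times the −log10 q, as the authors' peak caller wrote them; none is a read count.

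The summit pileup, local background and background coverage were recovered from the deposited fold and p of each peak (tolerance 0.0001). Heights are multiples of the background coverage and do not give the reads sequenced. Lists were merged per antibody into regions, at an overlap of at least 1 bp. Single values were compared between genotypes with two-sided exact permutation tests, and window against rest with exact sign-flip permutation over cultures. Breadth and summit height of regions in all 6 lists were compared with limma 3.58.1 (R 4.3.3, trended variance) on the log2 scale over all such regions, with Benjamini-Hochberg adjustment. Python 3.11.15 with scipy 1.17.1 did the rest. The steps were tested on simulated data. Same-numbered cultures did not deviate together, and the number entered as a block in an alternative fit only.

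Named regions are the 5 shared H3K4me3 regions of each subcluster with the highest scores, up to 3 genotype-specific regions and up to 3 with the largest called breadth difference per antibody and direction, and the region with the most FLAG bases per genotype. Members and lists were chosen with earlier results of these data known. Alternatives were the top 50% of peaks, equal list sizes, a −log10 q of at least 5, joining over 1000 bp and an overlap of 50%. Others were assigning peaks to the window by summit, narrower subclusters, centring, a block and leaving out each culture. A common p limit, the local background limit and the 4 score bands were chosen after seeing the data. Protein sequences were not used here.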

Additional observations from a re-analysis of the deposited data

How the results depend on the processing

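All 74 comparisons of FLAG peak number, covered bases, share of the list and median width between genotypes kept their direction and did not overlap. They leave out the runs without 1 culture, the block and the overlaps with H3K4me3. H3K4me3 peak numbers, lower in K27M-Tag on average in the window and both subclusters, turned higher: by 2.67, 3.67 and 14.3 in the window for the top 50% of peaks, joined peaks and low local background, by 0.667, 1.33 and 7 proximally, by 2.00, 1.00 and 1.33 distally, and between the subclusters, where K27M-Tag was higher, the difference was 0 for the top 50%. Leaving out 1 culture gave differences of -3.33 to 2.17 in the window (positive without WT-Tag replicate 1) and -2.50 to 1.00 distally (positive without K27M-Tag replicate 1, at 0.5, or WT-Tag replicate 1), and -0.0150 to 0.0017 points for the H3K4me3 share of the list, which equal sizes put at 0.00154. The FLAG share on H3K4me3 turned higher in K27M-Tag by 2.56, 5.84 and 9.38 points with equal sizes, joined peaks and low local background. FLAG width exceeded the rest by 44.4 bp ± 36.5 (SD, n = 6), in 5 of 6 cultures (exact sign-flip permutation p = 0.0625). By genotype this was 68.3 bp ± 0.577 in K27M-Tag and 20.5 bp ± 40.2 in WT-Tag (SD, n = 3 each). With joined peaks it passed (474 bp, exact permutation p = 0.03125). Window minus rest passed no longer for H3K4me3 peaks with FLAG under low local background (8.28 points, exact permutation p = 0.09375) and for H3K4me3 width in the top 50% (115 bp, exact permutation p = 0.125). Without 1 culture these were 45.3 to 52.2, 8.402 to 12.3 and 10.8 to 15.2 points for the overlaps and 486 to 573 bp for H3K4me3 width, at an exact permutation p of 0.0625, the smallest for 5 cultures. K27M-specific FLAG regions were 33 with equal sizes and 22 joined. K27M-specific H3K4me3 regions were 1 in the top 50%, with equal sizes, at a −log10 q of 5 and joined, 12 under low local background and 3 to 5 without 1 culture. WT-specific ones were 1 with equal sizes, at that q and under low local background. H3K4me3 regions with FLAG in K27M-Tag alone were 18 with equal sizes and 14 under low local background. Shares over all regions are not given for these counts of specific regions and of that pattern, so none is set against a background. Regions called for FLAG breadth, all wider, were 9 of 24 centred (37.5%, against 8.13% of all regions) and 9 of 17 in the top 50% (52.9% against 45.6%). They were 9 of 18 with equal sizes (50.0% against 49.7%) and 10 of 18 at that q (55.6% against 44.0%). Joined peaks gave 11 of 13 (84.6% against 34.4%) and low local background 7 of 12 (58.3% against 39.4%). Without 1 culture they were 14 to 23 (58.3% to 76.7%, against 22.1% to 45.5%). For FLAG summits, centring gave 2 higher (8.33%, against 8.998% of all regions) and 1 lower (4.17% against 12.3%). The top 50% gave 7 higher (41.2% against 46.9%), equal sizes 7 (38.9% against 50.9%) and that q 6 (33.3% against 41.2%). Joined peaks gave 6 higher (46.2% against 39.3%). Low local background gave 4 higher (33.3% against 35.3%) and 1 lower (8.33% against 1.65%). Without 1 culture 5 to 15 were higher (20.8% to 62.5%, against 24.0% to 40.6%). For H3K4me3 breadth 1 was wider centred (1.299%, against 1.97% of all regions) and 4 joined (5.80% against 4.34%). The top 50%, equal sizes and low local background each gave 5 (8.06%, 6.58% and 11.6%, against 4.18%, 6.02% and 7.84%). Without 1 culture 0 to 11 were wider (up to 14.3%, against 0.326% to 10.6%). For H3K4me3 summits 5 were higher in the top 50% (8.06%, against 1.96% of all regions) and 6 under low local background (14.0% against 9.67%). Without 1 culture 2 to 28 were higher (2.60% to 36.4%, against 2.22% to 24.3%). Centring gave 5 higher (6.49% against 2.17%) and 19 lower (24.7% against 5.06%). The centred median turned to -0.10, and that of all regions to -0.07. Top 50%, equal sizes and low local background leave fewer peaks by construction, and otherwise the cause was not tested. With the replicate number as a block (replicate block), FLAG breadth kept 17 calls (70.8%, against 38.4% of all regions) and H3K4me3 breadth 1 (1.299% against 2.01%). The paired FLAG peak difference of 152 then had an exact permutation p of 0.25, the smallest for 3 pairs. Same-numbered cultures correlated at 0.0126 or less for FLAG. The lists hold no depth, and signal under a list's limit is not in them.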
